A study of Homo sapiens with 8 samples.

Results

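Serine synthesis and folate one-carbon metabolism were followed through 10 enzymes: PHGDH, PSAT1 and PSPH of serine synthesis, SHMT1 and MTHFD1 of the cytosolic folate pathway, and SHMT2, MTHFD2, MTHFD2L, MTHFD1L and ALDH1L2 of the mitochondrial one. A member was read from probe sets that the platform annotation maps to that gene alone, which gave 28 probe sets for the 10 genes, of 54613 probe sets and 19775 named genes in all. A further 5 probe sets that the annotation assigns to a member together with other genes (1 for PHGDH, 2 each for SHMT1 and MTHFD1L) were not used. The cells were Saos-2, an established human osteosarcoma line and the same line in all groups. Untreated cells (3 arrays) were compared with cells given a compound labelled Prima for 6 h (3 arrays) or 12 h (2 arrays, replicates 1 and 3), to see how the transcriptome of these cells responds. A single cell line was used, the dose is not given in the labels, and the labels do not tell separate cultures from repeat measurements, so a p-value here reflects only how far these samples scatter, which can be technical.

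Cells make serine from the glycolytic intermediate 3-phosphoglycerate in consecutive steps run by PHGDH, PSAT1 and PSPH. The serine hydroxymethyltransferases then pass a carbon from serine to tetrahydrofolate, SHMT2 in mitochondria and SHMT1 in the cytosol, and the MTHFD enzymes carry that carbon to formate and to the folates used for purine and thymidylate synthesis. The transcription factor ATF4 is known to induce many of these genes when amino acids run short, which is why they are often read beside ASNS and SLC7A11 in stress experiments.

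Promoter sequence was available from RefSeq (GRCh38.p14) for 7 of the 10 members, in 11 windows from 250 bases before to 50 after a start site. PSPH, SHMT2 and ALDH1L2 had no entry and were not used here. The windows were searched on both strands for TGATGNAA, the form of the composite element bound by ATF4 with C/EBP partners, and for the E-box CACGTG, bound by MYC among others, which do not overlap each other in any window printed here. The sites found in members are shown beside that of ASNS, a well-studied ATF4 target. Capitals mark the match, each with 8 flanking bases on either side.
MTHFD1L, chr6:150866349-150866372, plus strand: gccggctcTGATGCAAtcgcgccg
MTHFD1L, chr6:150866324-150866345, plus strand: cccggctcCACGTGcgcagccg
MTHFD1, chr14:64388330-64388351, plus strand: tccctaagCACGTGggttgggt
ASNS, chr7:97872461-97872484, minus strand: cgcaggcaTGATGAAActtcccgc

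TGATGNAA was found in 1 of the 7 members with a window and in 3 of 7 ATF4 targets from outside the pathway that had one (ASNS, CARS1 and CHAC1), against 4.46% of all 27305 genes with a window (3.62% of 35116 windows). CACGTG was found in 2 of the 7 members, MTHFD1L and MTHFD1, against 8.77% of all genes (7.26% of windows). In MTHFD1L both matches lie within the windows of 3 annotated start sites. A match describes letters only, and no binding was measured.

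The arrays differed in ways that bear on every value below. Values are MAS5 signals, a probe-set brightness on a linear scale that the authors' processing set to a common trimmed mean on each array, so a level is comparable between arrays for 1 probe set but not between probe sets. Median signal was 47.5 and 50.8 on the replicate 2 arrays and 14.2 to 24.9 on the others, and the 12 h group has no replicate 2. Signal from the 3′ end of ACTB relative to its 5′ end, which rises as RNA degrades, reached 2.29 on 12 h replicate 1 and 1.73 on 6 h replicate 1, against 1.12 to 1.38 elsewhere. The osteoblast markers RUNX2, COL1A1 and SPARC had medians of 1915, 3648 and 2118, and the other 5 measured (SP7, ALPL, COL1A2, IBSP and SPP1) had medians of 26.2 to 140, beside 697 for the epithelial marker KRT18 and 186 for EPCAM, levels that are not comparable between probe sets. All 8 osteoblast markers measured passed the filter on dim genes, and their summed signal, carried by those 3, was 6767 to 8359 in untreated cells, 6258 to 9146 at 6 h and 8327 to 8539 at 12 h. Of 4 epithelial markers 3 passed, with summed signals of 477 to 974, 667 to 2291 and 940 to 959. The blood markers measured (1 of 3 passing) summed to 23.6 to 78.4, 18.9 to 155 and 16.3 to 23.6, and the endothelial markers (1 of 3) to 17.01 to 153, 18.3 to 205 and 18.3 to 50.2. Their part in the results was not tested.

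Among the members, the replicate 2 arrays ranked differently for bright and dim probe sets, more so in untreated cells than at 6 h. Of the 17 member probe sets above the filter, 10 had their lowest untreated value on replicate 2 and 5 their highest. Of the 11 under it, 0 had their lowest and 10 their highest untreated value there. At 6 h the counts were less uneven, with 6 lowest and 2 highest of the 17 above the filter, and 0 lowest and 7 highest of the 11 under it. The 12 h group holds no array of that number. These ranks were not counted over all probe sets, so they are not shown to be particular to the members.

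**Figure D1:**
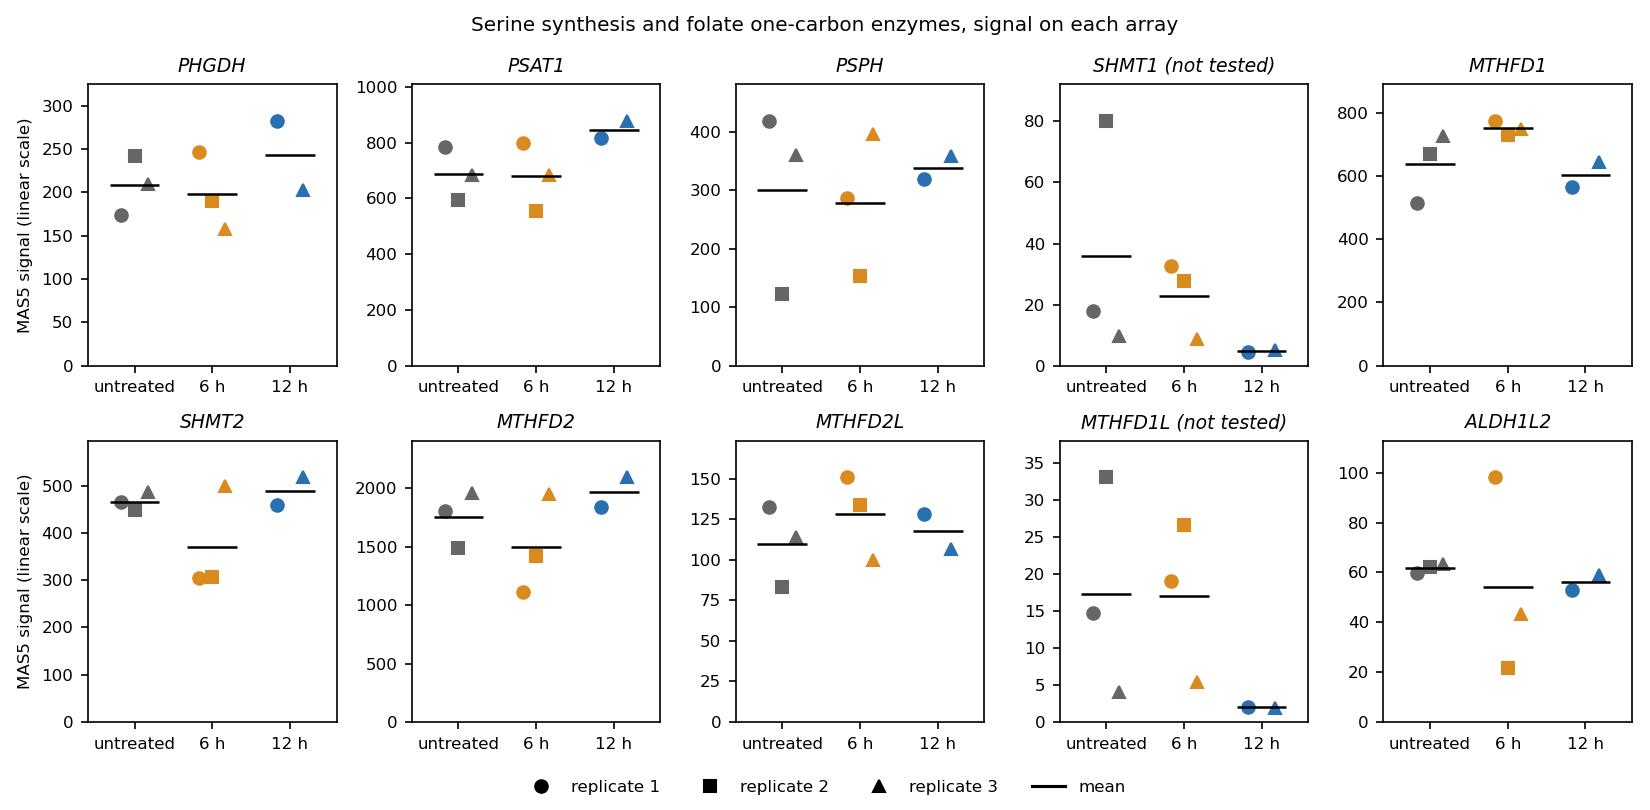
MAS5 signal (vertical axes, linear scale from 0) of the brightest probe set of each of the 10 members in untreated cells and after 6 h and 12 h, with 1 point per array, shaped by replicate number, and a bar at the group mean. PSAT1 lies at 816.6 and 877.1 at 12 h, above the other 6 arrays, SHMT2 lies at 305.1 and 307.1 on 2 of 3 arrays at 6 h, and SHMT1 lies at 4.61 and 5.08 at 12 h.

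No member passed the test in any comparison. Differences were tested with limma on log2 signals, 1 probe set per gene (the brightest), over the 12063 genes whose mean level exceeded the median of all probe sets, with Benjamini-Hochberg adjustment. Of the 10 members 8 were bright enough to be tested. SHMT1 and MTHFD1L were not on the probe sets that map to them alone, and each has 2 further probe sets, assigned to it together with other genes, that were not read, so their dimness is that of the probe sets used and need not be that of the transcripts. The share of all genes passing was 0% in each of the 3 comparisons (smallest adjusted p 0.9999, 0.9999 and 0.99998), with 79, 74 and 88 genes (0.655%, 0.613% and 0.73%) at an unadjusted p under 0.05 for 6 h against untreated, 12 h against untreated and 12 h against 6 h. Of the 8 members 0 were among these in any of the 3 comparisons.

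The 3 serine synthesis enzymes had log2 differences of -0.09 to -0.02 at 6 h and of 0.21 to 0.36 at 12 h, and all of their 95% intervals contained 0. PSAT1, the aminotransferase of the second step, read 785.9, 593.3 and 684.2 in untreated cells (replicates 1, 2 and 3), 797.6, 554.7 and 685.2 at 6 h, and 816.6 and 877.1 at 12 h (replicates 1 and 3). Both 12 h arrays lay above every other array, and the untreated and 6 h arrays overlapped with the lowest value of each on replicate 2. The mean was 847 ± 42.8 (SD, n = 2) at 12 h against 688 ± 96.3 (SD, n = 3) in untreated cells. The log2 difference was 0.31 ± 0.26 (SE), with a 95% interval of -0.26 to 0.88 and an unadjusted limma p of 0.262. With the replicate number as a block it was 0.19, and within replicate numbers it was 0.055 in replicate 1 and 0.36 in replicate 3. For 12 h against 6 h PSAT1 differed by 0.33 ± 0.26, and by 0.21 with the block. Arrays that do not overlap and lie higher at 12 h were found in 9.6% of all genes tested, and PSAT1 was the 1 of 8 members with that pattern. Against 6 h it was again the 1 of 8, beside 7.1% of genes. The second PSAT1 probe set read 184.2 and 385.9 at 12 h against 161.3 to 270.9 in untreated cells, so its groups overlapped.

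PHGDH, which commits 3-phosphoglycerate to serine synthesis, read 174.0, 241.8 and 209.9 in untreated cells, 245.9, 189.8 and 157.4 at 6 h, and 282.0 and 203.1 at 12 h. The replicate 1 arrays were the highest in both treated groups and the lowest in the untreated one. Within replicate numbers the 6 h difference was 0.50 in replicate 1, -0.35 in replicate 2 and -0.42 in replicate 3 on the log2 scale. At 12 h it was 0.70 in replicate 1 and -0.05 in replicate 3. The PHGDH mean of 243 ± 55.8 (SD, n = 2) at 12 h against 209 ± 33.9 (SD, n = 3) thus rests on 1 array, 12 h replicate 1, whose ACTB ratio was the highest, and without it the log2 difference was -0.03 in place of 0.21. The GAPDH ratio of that array was 1.04, and the part of either ratio in the PHGDH value was not tested.

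PSPH, the phosphatase that releases serine, read 417.8, 121.9 and 360.0 in untreated cells, 287.3, 152.8 and 395.7 at 6 h, and 318.8 and 357.6 at 12 h on its brightest probe set. The replicate 2 arrays were the lowest in both groups that have one. The log2 difference at 12 h was 0.36 ± 0.50 (SE), but -0.20 without untreated replicate 2 and -0.11 with the replicate number as a block. The other PSPH probe sets did not move together with it. At 12 h they differed by -0.16 and 0.05, and at 6 h by -0.48 and 0.17 where the brightest differed by -0.03.

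The cytosolic pathway was measured by MTHFD1 alone. MTHFD1, the trifunctional enzyme that interconverts formate, methenyl and methylene folates, read 513.2, 670.3 and 727.3 in untreated cells, 773.4, 730.4 and 748.0 at 6 h, and 564.3 and 644.1 at 12 h. All 6 h arrays lay above all untreated and all 12 h arrays, by a narrow margin over untreated replicate 3. The mean was 751 ± 21.6 (SD, n = 3) at 6 h against 637 ± 111 (SD, n = 3) in untreated cells. The log2 difference was 0.25 ± 0.23 (SE), with a 95% interval of -0.24 to 0.75. Within replicate numbers the 6 h difference was 0.59, 0.12 and 0.04 (replicates 1, 2 and 3). The difference of 12 h from 6 h was -0.32 ± 0.26 (SE). Non-overlapping arrays that lie higher at 6 h were found in 2.03% of genes tested, and non-overlapping arrays that lie lower at 12 h than at 6 h in 4.5%, against 1 of 8 members each, MTHFD1 in both cases. At 6 h 0 of 8 members lay lower without overlap, beside 1.51% of genes. With each array centred on its median the 12 h against 6 h difference turned to 0.27, since that scaling moved all genes up at 12 h. The second MTHFD1 probe set was under the filter, and differed by -0.08 at 6 h and by -0.86 for 12 h against 6 h.

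SHMT1, the cytosolic serine hydroxymethyltransferase, was too dim to test on the probe sets that map to it alone. Its brighter one read 18.1, 80.1 and 9.62 in untreated cells, 32.7, 27.6 and 8.64 at 6 h, and 4.61 and 5.08 at 12 h. The other read 8.81, 56.2 and 4.04, then 16.5, 61.7 and 2.76, and then 27.4 and 7.66. The 12 h arrays were below all others on the first probe set and spread among them on the second, so the 2 probe sets did not share a direction.

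In the mitochondrial pathway the values at 6 h were uneven between arrays. SHMT2, the mitochondrial serine hydroxymethyltransferase, read 464.7, 448.6 and 486.1 in untreated cells, 305.1, 307.1 and 500.3 at 6 h, and 459.3 and 517.6 at 12 h. Replicates 1 and 2 at 6 h were below every other array and replicate 3 was not. The log2 difference at 6 h was -0.37 ± 0.26 (SE) with a 95% interval of -0.93 to 0.19, and the difference of 12 h from 6 h was 0.44 ± 0.29 (SE). Within replicate numbers the 6 h difference was -0.61, -0.55 and 0.04.

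The 2 other SHMT2 probe sets gave a different picture for replicate 2. All 3 SHMT2 probe sets were below the untreated array in replicate 1 at 6 h, by -1.08, -0.61 and -0.24, and all 3 were above it in replicate 3, by 0.12, 0.04 and 0.22. In replicate 2 they split, at 1.13, -0.55 and 2.69, where the untreated replicate 2 array read 47.0 and 10.8 on the probe sets that differed upward. Averaged over its probe sets, SHMT2 had a log2 difference of 0.19 at 6 h, opposite in sign to that of the brightest one.

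MTHFD2, the mitochondrial methylene-tetrahydrofolate dehydrogenase that is low in most adult tissues and high in proliferating cells, read 1809, 1485 and 1959 in untreated cells, 1114, 1418 and 1950 at 6 h, and 1838 and 2093 at 12 h. The 6 h replicate 1 array was the lowest of all 8, and the groups overlapped in every comparison. Its log2 difference was -0.26 ± 0.25 (SE) at 6 h, 0.17 ± 0.28 at 12 h and 0.43 ± 0.28 for 12 h against 6 h. Leaving out 1 array at a time gave -0.47 to -0.065 at 6 h, 0.059 to 0.27 at 12 h and 0.24 to 0.64 for 12 h against 6 h, and the replicate block gave 0.11 at 12 h. Its second probe set was also lowest on 6 h replicate 1, at 7.20 against 14.3 to 67.6 on the other 7 arrays. All 5 probe sets of SHMT2 and MTHFD2 were thus lower on 6 h replicate 1 than on untreated replicate 1. On 6 h replicate 1 the ACTB ratio was 1.73 and the GAPDH ratio 0.98, and their part in these values was not tested.

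**Figure D2:**
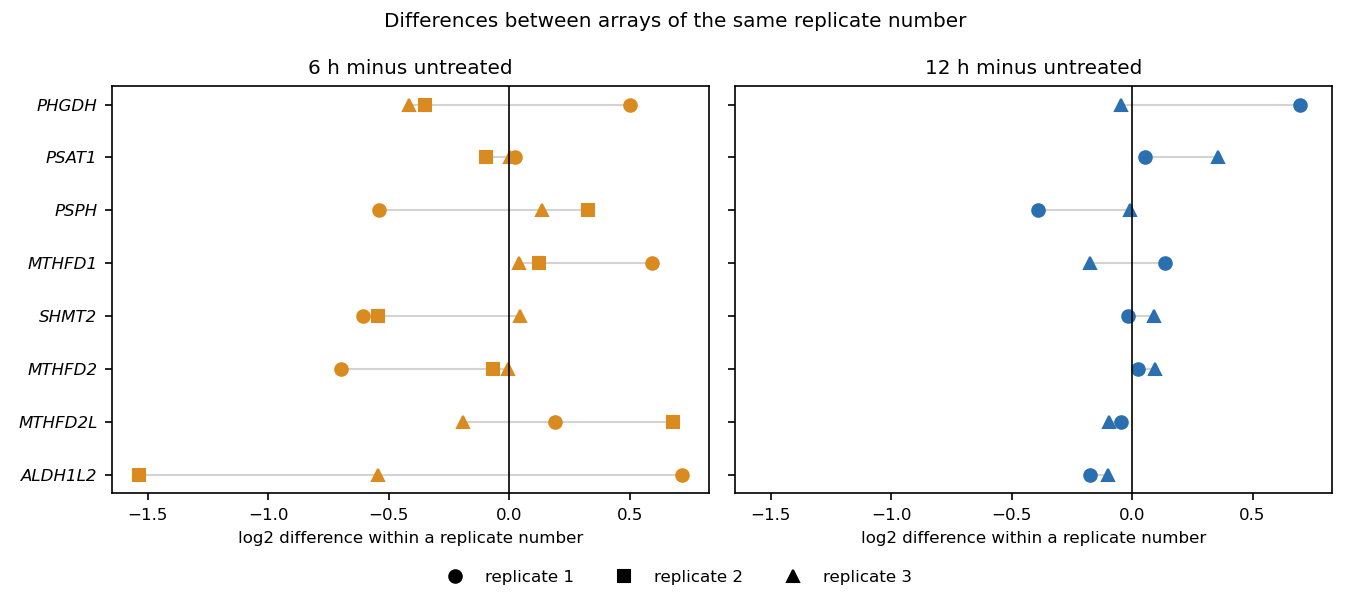
Difference in log2 signal (horizontal axes) between treated and untreated arrays of the same replicate number, for the brightest probe set of the 8 tested members, with points shaped by replicate number and a grey line joining the points of a gene. SHMT2 and MTHFD2 lie at -0.61 and -0.70 in replicate 1 at 6 h, while PHGDH, MTHFD1 and ALDH1L2 lie at 0.50, 0.59 and 0.72 in the same replicate.

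MTHFD2L, a paralogue of MTHFD2 with the same type of activity, read 132.4, 83.5 and 113.9 in untreated cells, 150.8, 133.6 and 99.7 at 6 h, and 128.4 and 106.6 at 12 h on its brightest probe set. The groups overlapped, and the log2 differences were 0.22 ± 0.31 (SE) at 6 h and 0.12 ± 0.35 at 12 h (0.043 with the replicate block). It had 8 probe sets, 4 of them above the filter, and at 12 h none of the other 7 shared the direction of the brightest one, with values down to -2.02. Averaged over probe sets the difference at 12 h was -0.83. The one that differed by -2.02 read 27.5, 63.9 and 19.9 in untreated cells and 4.63 and 14.1 at 12 h.

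ALDH1L2, the mitochondrial formyl-tetrahydrofolate dehydrogenase that oxidises the carbon unit to carbon dioxide, read 59.7, 62.2 and 63.2 in untreated cells, 98.1, 21.5 and 43.3 at 6 h, and 52.9 and 59.1 at 12 h. The 6 h arrays spread 4.57-fold, the 12 h arrays lay below the untreated ones by a small margin, and the log2 differences were -0.45 ± 0.53 (SE) and -0.14 ± 0.59. With the replicate block the 12 h difference was -0.41. Non-overlapping arrays that lie lower at 12 h were found in 4.89% of all genes tested, and ALDH1L2 was 1 of 8 members. MTHFD1L, the mitochondrial formate-releasing synthetase, was too dim to test on its brighter probe set among those that map to it alone. It read 14.8, 33.1 and 4.09 in untreated cells, 19.1, 26.7 and 5.35 at 6 h, and 2.05 and 1.89 at 12 h. Both 12 h signals were under the floor of 2.39 set before logs were taken, so no fold was drawn from them.

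**Figure D3:**
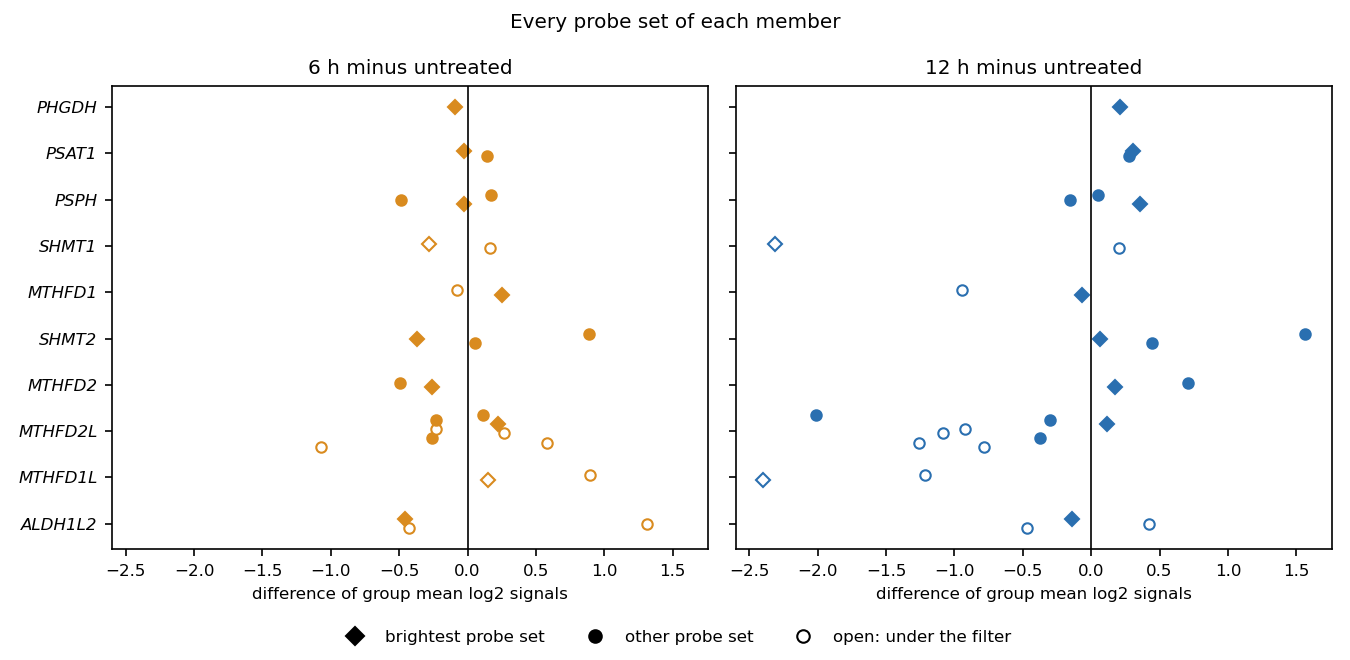
Difference between group mean log2 signals (horizontal axes) for all 28 probe sets of the 10 members at 6 h and at 12 h against untreated, with the brightest probe set of each gene as a diamond, others as circles, and open symbols for probe sets under the filter. At 12 h 11 of the 17 probe sets above the filter lie above 0, and 9 of the 11 under it lie below 0.

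The dim and the bright probe sets of the members leaned opposite ways at 12 h. Of the 17 above the filter 11 were above 0 with a median log2 difference of 0.12, and of the 11 under it 2 were above 0 with a median of -0.94. At 6 h the split was 7 of 17 (median -0.03) and 6 of 11 (median 0.15). The untreated value of 10 of those 11 dim probe sets was highest on replicate 2, a number absent at 12 h. Probe sets of the same gene were counted separately. MTHFD2L alone has 8, of which 4 are above the filter, and both probe sets of SHMT1 and of MTHFD1L are under it. The same counts were not made over all probe sets, so the lean is not shown to be particular to the members. Of all probe sets, 0.06% and 0.07% were at the floor on the untreated and 6 h replicate 2 arrays, against 6.27% to 20.8% on the others.

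Over all 10 members, tested or not, the median log2 difference was -0.06 at 6 h (3 above 0), 0.09 at 12 h (6 above 0) and 0.31 for 12 h against 6 h (6 above 0). The medians over all genes tested were 0.02, 0.08 and 0.06, with 53%, 59.9% and 57.2% of genes above 0. The median for 12 h against 6 h became -0.03 without 6h replicate 2 and also without both replicate 2 arrays. With the replicate number as a block the medians at 12 h were -0.03 against untreated and -0.02 against 6 h. Centring arrays on their median added 0.58 to every difference at 12 h, which brought the median of all genes tested to 0.66, and relative to all genes the members stood 0.01 higher at 12 h under both scalings.

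The intervals set bounds on what these arrays allow for the brightest probe set of each tested member. At 12 h the 95% interval of 6 of 8 members excluded both a 2-fold rise and a 2-fold fall. The exceptions were PSPH (-0.72 to 1.44) and ALDH1L2 (-1.42 to 1.13). At 6 h 7 of 8 members were bounded in this way, with ALDH1L2 (-1.59 to 0.68) the exception, and for 12 h against 6 h 4 of 8 were. All of these intervals contained 0. Leaving out 1 array moved 22 of the 24 differences of tested members by more than 1.5 times in at least 1 case, and 11 of them changed sign. The bounds do not extend to the other probe sets of these genes. At 12 h another SHMT2 probe set differed by 1.56, with 10.8 on untreated replicate 2, and another of MTHFD2L by -2.02. The intervals are not adjusted for the number of genes, and they do not show that levels were equal.

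**Figure D4:**
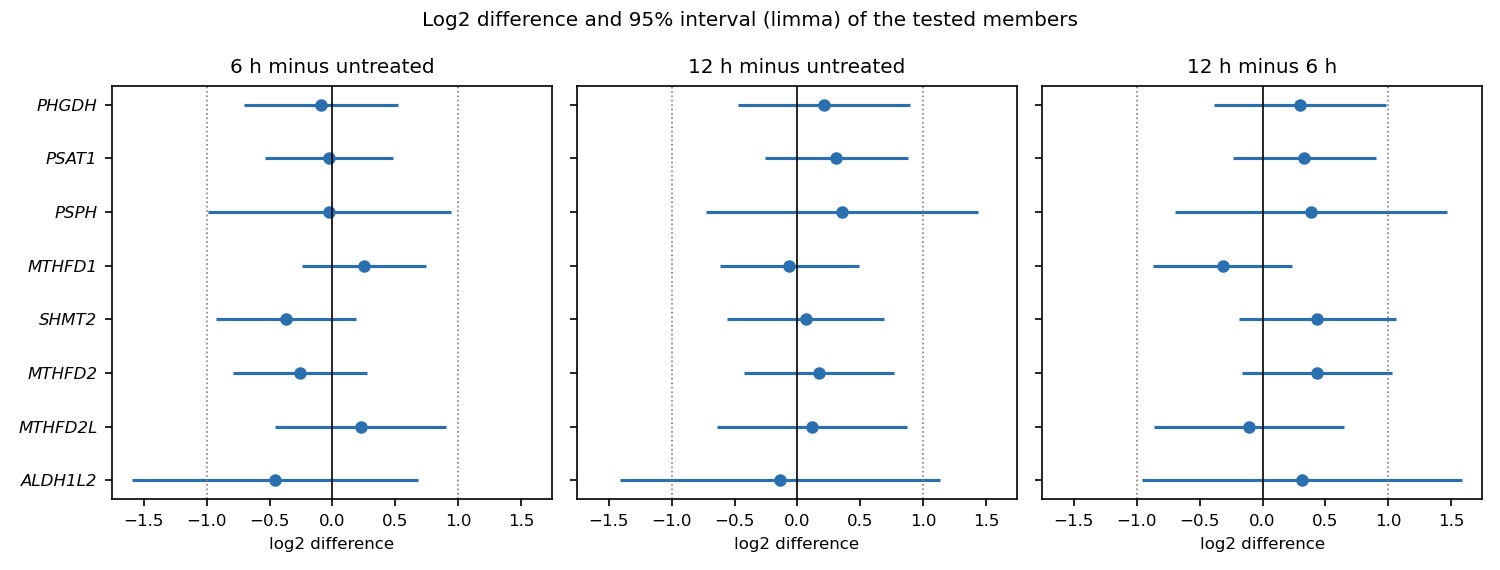
Log2 difference (points, horizontal axes) and 95% interval (lines) from limma for the brightest probe set of the 8 tested members in the 3 comparisons, with dotted lines at a 2-fold change. Every interval crosses 0, and at 12 h against untreated 6 of the 8 stay inside the dotted lines.

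Other genes that feed or use one-carbon units gave the same count of calls. Of 48 genes in 5 lists written for the pathway, 35 were tested and 0 passed in any comparison, with 0 at an unadjusted limma p under 0.05. Of the 35, 20 were above 0 at 6 h, 22 at 12 h and 21 for 12 h against 6 h, beside 53%, 59.9% and 57.2% of all genes tested. In the folate cycle list FPGS, which adds glutamate tails that keep folates in the cell, read 87.8, 79.8 and 79.3 in untreated cells and 79.0, 22.9 and 58.6 at 6 h. The 6 h arrays lay below the untreated ones by a narrow margin in replicate 1, and the log2 difference was -0.80 ± 0.46 (SE, unadjusted p 0.107), but -0.27 without 6 h replicate 2. For 12 h against 6 h FPGS differed by 0.69 ± 0.51 (unadjusted p 0.203), but 0.17 without that array. DHFR2 differed by 0.49 ± 0.35 at 6 h, but by -0.24 with averaged probe sets. ALDH1L1 and MTFMT differed by -0.58 ± 0.55 and -0.48 ± 0.50 at 12 h, where MTFMT was 0.27 without 12 h replicate 1. TYMS, the thymidylate synthase, differed by 0.21 ± 0.25 for 12 h against 6 h, but by -0.60 with averaged probe sets.

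Purine synthesis consumes formyl folate, and its 6 genes were all above 0 at 12 h (median 0.19, against 0.08 over all genes), but 4 of 6 with the replicate block and without untreated replicate 2 (medians 0.06 and 0.08), 5 of 6 after quantile normalization (0.04) and 3 of 6 with averaged probe sets (0.06). PFAS, of the fourth step, read 402.4 and 386.8 at 12 h and 360.7, 201.2 and 305.1 in untreated cells, so the groups did not overlap, with a log2 difference of 0.49 ± 0.30 (SE, unadjusted p 0.129), but 0.25 without untreated replicate 2. At 6 h PFAS differed by 0.22 ± 0.27, but -0.02 without that array, and by 0.27 ± 0.30 from 6 h to 12 h. GART differed by 0.29 ± 0.35 at 12 h, but 0.06 without 12 h replicate 3 and -0.15 with averaged probe sets. PPAT differed by -0.26 ± 0.30 at 6 h. For 12 h against 6 h PPAT differed by 0.42 ± 0.34, but by -0.06 with averaged probe sets. In the methionine cycle list MAT2A differed by 0.33 ± 0.31 and AHCYL1 by 0.24 ± 0.27 at 12 h. With averaged probe sets these differences were -0.24 and -0.06. AHCYL2 differed by 0.52 ± 0.42 at 6 h and -0.51 ± 0.475 from 6 h to 12 h, where MTR differed by 0.33 ± 0.31. AHCYL1 differed by 0.20 ± 0.24 at 6 h.

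Among genes of serine use and transport SLC1A5, a neutral amino acid carrier, read 280.5 and 177.9 at 12 h and 167.1, 178.8 and 141.4 in untreated cells. Only 12 h replicate 1 of these 2 arrays lay above the untreated ones, and the log2 difference was 0.47 ± 0.31 (SE). Without 12 h replicate 1 it was 0.14, and the difference of 12 h from 6 h was 0.46 ± 0.31. SPTLC1, of sphingolipid synthesis, read 1133, 606.0 and 1027 in untreated cells and 1105 and 1098 at 12 h, within the untreated range. Its difference of 0.31 ± 0.29 at 12 h was 0.03 without untreated replicate 2. From 6 h to 12 h it differed by 0.22 ± 0.29 (0.04 with the block, -0.09 with averaged probe sets). SRR and SPTLC2 differed by 0.18 ± 0.32 and -0.15 ± 0.35 at 6 h, but by 0.02 and 0.31 with averaged probe sets. In the glycine cleavage list AMT differed by -2.12 ± 1.05 between 12 h and 6 h (unadjusted p 0.0638), with 98.8 on 6 h replicate 2 and 6.97 to 66.2 on the other 7 arrays. Against untreated cells AMT differed by 0.80 ± 0.94 at 6 h, but 0.18 without 6 h replicate 2, and by -1.32 ± 1.05 at 12 h, but -0.60 without untreated replicate 2. SFXN3, a serine carrier family member, differed by 0.11 ± 0.31 at 6 h, 0.37 ± 0.35 at 12 h and 0.26 ± 0.35 between them, and without 12 h replicate 1 by 0.0025 at 12 h. With averaged probe sets these 3 SFXN3 differences were -0.44, -0.02 and 0.42.

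The regulators and the ATF4 targets from outside the pathway show the members' values in context. ATF4 read 1155, 825.1 and 1179 in untreated cells, 1210, 966.4 and 1233 at 6 h, and 1464 and 1427 at 12 h. Both 12 h arrays were above all others, and the log2 difference at 12 h was 0.48 ± 0.26 (SE, unadjusted p 0.0877). CEBPG, a partner of ATF4, differed by 0.535 ± 0.316 at 12 h. Without untreated replicate 2 the 12 h differences were 0.31 for ATF4 and 0.29 for CEBPG, and with the replicate block 0.34 for both. DDIT3, a stress-induced C/EBP factor, read 64.7, 62.4 and 113.4 in untreated cells, 94.9, 127.7 and 110.7 at 6 h, and 52.2 and 91.3 at 12 h, so both 12 h arrays lay below all 6 h arrays. Its log2 difference was 0.52 ± 0.37 at 6 h, -0.16 ± 0.42 at 12 h and -0.68 ± 0.42 for 12 h against 6 h (unadjusted p 0.128), where ATF4 differed by 0.36 ± 0.26. Without 12 h replicate 1 the DDIT3 difference of 12 h from 6 h was -0.27. MYC differed by 0.20 ± 0.26 at 6 h. None passed.

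The 8 ATF4 targets from outside the pathway were all above 0 at 12 h, with a median of 0.58. Over all genes tested the median was 0.08, with 59.9% above 0. The targets' median was 0.46 after quantile normalization, and 0.37 with 7 of 8 above 0 without untreated replicate 3. It was 0.61 with 6 of 8 above 0 without 12 h replicate 3, and 0.35 with 7 of 8 for averaged probe sets. Of these targets 2 had an unadjusted limma p under 0.05 against 0.613% of all genes. ASNS, asparagine synthetase, read 280.7 and 336.4 at 12 h and 215.3, 136.5 and 228.4 in untreated cells, a log2 difference of 0.70 with a 95% interval of 0.04 to 1.37, which was 0.47 without untreated replicate 2. Its other probe set did not share the direction, and averaged over both the difference was -0.03. SLC7A11, the cystine transporter subunit, read 313.1 and 570.6 against 231.6, 214.3 and 260.7, a log2 difference of 0.85 with an interval of 0.06 to 1.64. Without 12 h replicate 3 it was 0.42, and 6 h replicate 1, at 321.7, lay above the remaining 12 h array. Of the 2 other SLC7A11 probe sets 1 shared the direction, and averaged over probe sets the difference was 0.31. Against 6 h it was 0.88 ± 0.37, but 0.45 without 12 h replicate 3, and that of SLC7A5, an amino acid exchanger, was 0.65 ± 0.32. At 6 h CARS1 and TRIB3 differed by 0.34 ± 0.27 and 0.33 ± 0.49, and by -0.05 and 0.36 with averaged probe sets. Neither ASNS nor SLC7A11 passed after adjustment at 12 h (adjusted p 0.9999 for both, limma). The 12 h intervals of ASNS and SLC7A11 overlap those of all 8 tested members at 12 h. The difference between the members and these targets was not tested. The targets were chosen with earlier results of these data known, so they give no independent support.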

How the data were processed

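RNA from 8 samples was measured on Affymetrix 3′ arrays, 1 array each. The authors deposited linear intensity values per probe set, from MAS5, per the submitters' processing notes, with version and settings not given in the sources used here. The 2% trimmed mean was 100.01 on every array. Array number limits the precision. Of 54675 probe sets 62 controls were left out, 41091 had 1 gene symbol, 1801 several and 11721 none listed. Signals under the 10th percentile (2.386) were set to it before log2. Genes took their brightest probe set and were tested if their mean log2 signal exceeded 4.216, which left 12063 of 19775. limma 3.58.1 (R 4.3.3; lmFit, eBayes with a variance trend) fitted the 3 groups together, two-sided, with a threshold of 0.05 on the adjusted p. Intervals are at 95%.

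The members and lists were chosen with earlier results of these data known. All members were named, and from other lists the genes passing or, where none passed, the 2 with the smallest p. A part of these is not reported here. Deviations from group means correlated at 0.108 to 0.637 in 7 pairs of same-numbered arrays and at -0.576 to 0.333 in 14 others. Deviations within a group sum to 0, which by itself lowers the values of other pairs. With 2 arrays at 12 h the values mirror each other. Also, 12 h replicate 1 correlated at 0.333 with untreated replicate 2 and at 0.108 with untreated replicate 1. The pairing is thus not settled by these values, and each fit was also run with that number as a block. In 5 simulations of 200 changed genes among 12063, 11.6%, 53.7% and 69.7% of 2-, 4- and 8-fold changes were recovered at 6 h and 5.07%, 46.6% and 69.4% at 12 h. The simulated noise was normal and independent between arrays, unlike the same-numbered arrays here, so these shares need not hold for these data. Alternatives were quantile normalization, array centring, a floor of 1, a pseudocount of 32, probe sets averaged or taken singly, no filter or one at the 75th percentile, no variance trend, only the groups compared, and each array left out. A fit without both replicate 2 arrays was chosen after seeing the data. One item of the labelled genotype is not reported here.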

Additional observations from a re-analysis of the deposited data

Results flagged for a closer look

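MTHFD2 drew attention because its 6 h arrays lay below the untreated array in 3 of 3 replicate numbers (-0.70, -0.07 and -0.01 on the log2 scale) and its 12 h arrays above it in 2 of 2 (0.02 and 0.10). The difference of 12 h from 6 h was 0.43 (limma adjusted p 0.99998), so it did not pass. Leaving out 1 array at a time gave 0.24 to 0.64, and several of these pair differences are close to 0. Both sets of differences share the untreated arrays. All of these values are from the brightest probe set. The second MTHFD2 probe set did not share the pattern against untreated arrays. It differed by -2.82, 1.45 and -0.12 at 6 h (replicates 1, 2 and 3), and by -0.47 and 0.80 at 12 h (replicates 1 and 3). For 12 h against 6 h it did share the direction, at 2.35 and 0.92 (replicates 1 and 3), with a dim 7.20 on 6 h replicate 1.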

How the results depend on the processing

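The count of genes passing was 0 in each comparison under all 20 alternatives run, and no tested member passed under any of them. With the replicate block the count of genes passing was again 0, the lowest adjusted p of a member was 0.831 at 6 h, 0.9998 at 12 h and 0.972 for 12 h against 6 h, and the block changed no call. Of 591 repeats of single-member differences, 41 turned sign, counted for tested members only, and 5 of dim members moved by more than 1 SD. Sign turns of the 2 dim members were not counted. With single arrays left out at 6 h, SHMT1 ranged from -0.94 to 0.59 and MTHFD1L from -0.66 to 0.84. The filter settings, probe sets taken singly, the variance trend and the choice of groups fitted leave a difference as it was. So does leaving out an array of the third group. The count of 41 thus does not measure how stable the differences are. The cause of the turns and moves was not tested. Centring arrays moved the members' median to 0.67 at 12 h and 0.89 for 12 h against 6 h. Without both replicate 2 arrays the latter was -0.033, and leaving out single arrays gave -0.033 to 0.31.

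At 6 h, quantile normalization gave 0.053 for PSPH. Averaged probe sets gave 0.060 for PSAT1, 0.19 for SHMT2, -0.076 for MTHFD2L and 0.14 for ALDH1L2. Without both replicate 2 arrays the values were 0.012 for PSAT1, -0.0025 for MTHFD2L, 0.086 for ALDH1L2 and 0.042 for PHGDH. Single arrays left out gave -0.58 to 0.35 for PSPH, -0.15 to 0.11 for PSAT1, -1.02 to 0.080 for ALDH1L2 and -0.26 to 0.064 for PHGDH.

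At 12 h, quantile normalization gave -0.10 for SHMT2 and 0.24 for ALDH1L2, and centring 0.44 for ALDH1L2 and 0.52 for MTHFD1. The replicate block gave -0.0070 for SHMT2 and -0.11 for PSPH. Averaged probe sets gave -0.83 for MTHFD2L. Without both replicate 2 arrays MTHFD2L was -0.070 and PSPH -0.20. Single arrays left out gave -0.022 to 0.15 for SHMT2, -0.21 to 0.040 for MTHFD1, -0.070 to 0.26 for MTHFD2L, -0.20 to 0.69 for PSPH and -0.025 to 0.45 for PHGDH.

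For 12 h against 6 h, centring gave 0.27 for MTHFD1 and 0.48 for MTHFD2L, averaged probe sets -0.20 for ALDH1L2, and the block -0.086 for PSPH. ALDH1L2 was -0.22 without both replicate 2 arrays. Single arrays left out gave -0.28 to 0.025 for MTHFD2L and -0.22 to 0.87 for ALDH1L2.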
